A study of Mus musculus with 16 samples.

Results

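The genes described here are 33 genes of the secretory pathway and of the unfolded protein response, listed by name. The list was chosen with earlier results of these data known. A name match found 32 of them and the RefSeq accession found the other, Mzb1, so that all 33 were measured, out of 34832 gene names on the array. They had 44 of 55681 probes, and the brightest probe that passed the filter on dim probes stood for each gene. All 33 passed that filter, which asked for 4 or more of 16 arrays with a signal well above background. For 32 of them the signal was well above background on 16 of 16 arrays, and for Fkbp11 on 8.

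RNA came from splenic B cells isolated with beads that bind B220, a B cell form of CD45, and was hybridised to single-colour (Cy3) Agilent mouse arrays. The 3'RR-deficient mice lacked the 3' regulatory region of the immunoglobulin heavy chain locus, a cluster of enhancers that drives heavy chain transcription. In the labels their 129 IgH allele is the one knocked out, the background is BALBC and so is the strain, whereas 129 is entered as the strain of the wild-type mice. Genotype and strain cannot be told apart in any comparison given here. The cells had no stated treatment or time point, no age is given in the labels, and the region was missing from the mouse as a whole. Each of 2 slides held 4 deficient and 4 wild-type arrays. The design text names 4 mice of each genotype, and no label says that the 8 arrays per genotype are separate mice, so a p-value measures only how far these samples spread, part of which may be technical.

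Proteins bound for the cell surface or for secretion enter the endoplasmic reticulum (ER) through the Sec61 channel, lose their signal peptide, and are folded by chaperones and disulfide-forming enzymes. Chains that do not fold are carried back to the cytosol and degraded. When folding falls behind, the sensors Ire1, Perk and Atf6 start the unfolded protein response, in which the factors Xbp1, Atf4 and Atf6 raise the genes for this machinery. Plasma cells, which secrete antibody, are known for a large ER and a high level of these genes, while resting B cells hold little of either.

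One way in which this response is known to reach its genes is the ER stress response element, to which Atf6 and NF-Y bind. The RefSeq promoter table (GRCm38.p6) held a window of 300 bases, from 250 before to 50 after the start, for 26 of the 33 genes. Sec61a1, Manf, Atf6, Spcs3, Hyou1, Ssr2 and Mzb1 had no entry in it. The element was searched on both strands as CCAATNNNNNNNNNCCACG and was found in 7 of the 26 genes (26.9%), Hspa5, Hsp90b1, Dnajc3, Creld2, Pdia6, Derl3 and Syvn1. Of all genes listed there, 0.137% held it, and of all windows of this length 0.119%. The genes were picked as known members of this pathway, so the share describes the list. Below, the element is in capitals on the gene's own strand, where CGTGG on the left and ATTGG on the right mark its reverse orientation. The upstream stretches around it are shown for 6 of the 7 genes that hold it, without Syvn1. They lie at chr2:34771965-34772073 (Hspa5, plus strand), chr10:86705503-86705694 (Hsp90b1, minus strand, with 2 matches), chr14:118937767-118937875 (Dnajc3, plus), chr15:88819460-88819568 (Creld2, plus), chr12:17266431-17266539 (Pdia6, plus) and chr10:75893182-75893290 (Derl3, plus).
Hspa5: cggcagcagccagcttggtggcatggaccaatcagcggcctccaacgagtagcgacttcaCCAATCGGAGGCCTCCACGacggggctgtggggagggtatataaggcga
Hsp90b1: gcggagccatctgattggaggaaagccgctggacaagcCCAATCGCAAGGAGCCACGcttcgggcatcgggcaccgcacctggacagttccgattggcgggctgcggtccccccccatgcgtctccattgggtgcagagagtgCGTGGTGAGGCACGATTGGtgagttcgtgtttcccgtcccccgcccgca
Dnajc3: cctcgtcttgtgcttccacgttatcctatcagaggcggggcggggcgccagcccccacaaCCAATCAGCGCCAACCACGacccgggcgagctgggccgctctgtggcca
Creld2: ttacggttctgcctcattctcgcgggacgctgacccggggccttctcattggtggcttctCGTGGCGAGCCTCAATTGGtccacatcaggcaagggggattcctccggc
Pdia6: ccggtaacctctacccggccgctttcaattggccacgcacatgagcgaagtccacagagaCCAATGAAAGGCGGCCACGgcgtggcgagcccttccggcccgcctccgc
Derl3: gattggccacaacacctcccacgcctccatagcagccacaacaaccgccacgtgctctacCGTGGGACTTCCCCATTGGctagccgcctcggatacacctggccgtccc

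A shorter form, ATTGGNCCACG, the ER stress response element II, was found in Herpud1 alone among the 26 genes and in 0.0365% of all windows. The unfolded protein response element TGACGTGG, known to bind Xbp1, was found in Txndc5 alone, against 0.676% of all windows. Txndc5 is shown as well because the results turn on it more than on any other gene, a choice made with its values known, and the capitals mark that element. The stretch lies at chr13:38528015-38528112 on the minus strand.
Txndc5: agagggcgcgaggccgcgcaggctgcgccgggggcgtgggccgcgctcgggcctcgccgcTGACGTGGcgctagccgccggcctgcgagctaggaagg
The short core CCACG, which all 3 of these motifs contain on 1 strand or the other, was in 21 of 26 genes (80.8%), against 35.5% of all genes of the promoter set. A match of letters describes the window and does not show a bound site.

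Levels are given as the log2 signal of a gene minus the 75th percentile of its array, and differences as deficient minus wild type in log2 units, each with the standard error (SE) that a limma fit over all 16 arrays gave. A gene was called at a Benjamini-Hochberg adjusted p under 0.05 over 22733 genes tested. B cell markers (8 of 8) were well above background in every group, and no array of either slide had a saturated spot. Markers of several other cell types differed between slides: the summed linear level of 6 neutrophil markers was 2.36 to 142 on slide 1 and 0.0793 to 0.147 on slide 2, and that of 9 macrophage and monocyte markers 62.6 to 128 and 17.8 to 27.4. That of the 4 conventional dendritic cell markers tested was 4.25 to 13.8 on slide 1 and 18.5 to 30.9 on slide 2, and that of 5 plasmacytoid dendritic cell markers 216 to 277 and 188 to 246. The 75th percentile of signal was 576 to 851 on slide 1 and 596 to 990 on slide 2, with 26041 to 29231 and 29954 to 34174 probes well above background.

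On slide 1 a few of these genes were higher in deficient cells. The differences were largest for the disulfide enzyme gene Txndc5, the degradation gene Derl3 and the ER-resident Creld2. The DnaJ gene Dnajb9 and the stress factor gene Atf4 were lower. In all, 5 of 33 genes were higher and 2 lower (26 not called), where 9.19% of all genes tested were higher and 15.8% lower. The median difference of the 33 was 0.17, against -0.08 over all genes, and 25 of 33 differences were positive. Over all genes 41% of differences were positive. At an unadjusted p under 0.05, 11 were higher and 2 lower, a threshold at which all genes were not counted. The groups did not overlap for 4 genes, with every deficient array above every wild-type array for 2 (7.35% of all genes) and below for 2 (15.1%).

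Txndc5 encodes a thioredoxin-domain disulfide isomerase of the ER and its probe lies on chromosome 13 from 38592680 to 38592739 (mm9). Its level on slide 1 was 3.73, 3.30, 4.31 and 3.68 on deficient arrays 9, 11, 10 and 12, and 1.85, 2.38, 2.52 and 2.70 on wild-type arrays 2, 5, 6 and 8. Every deficient array was above every wild-type array. The difference was 1.39 (SE 0.25, adjusted p 0.0018), a 2.63-fold higher signal, and it was called under all 26 alternatives run.

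Derl3, a Derlin that helps move misfolded chains out of the ER (probe on chromosome 10, 75358503 to 75358562), stood at 4.42, 3.59, 5.56 and 4.37 on deficient arrays 9, 11, 10 and 12. The wild-type arrays 2, 5, 6 and 8 gave 2.90, 3.61, 2.95 and 3.16. Deficient array 11 was level with the highest wild-type array and array 10 stood above all others, so the groups overlapped. The difference was 1.33 (SE 0.30, adjusted p 0.00681), and with slide 1 fitted alone adjusted p was 0.0683.

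Creld2, an ER stress-inducible protein with EGF-like domains (chromosome 15, 88656997 to 88657056), had 5.70, 5.12, 6.80 and 5.82 on the deficient arrays in the same order and 4.69, 5.10, 4.73 and 4.76 on the wild-type arrays. The groups did not overlap, although deficient array 11 and wild-type array 5 were almost level. It differed by 1.04 (SE 0.26, adjusted p 0.0106), and with slide 1 fitted alone adjusted p was 0.0784. Ell2, an elongation factor known to favour the secretory form of heavy chain mRNA (chromosome 13, 75908979 to 75909038), read 0.93, 0.59, 1.52 and 1.28 on deficient arrays and 0.49, 0.62, 0.60 and 0.56 on wild-type arrays. Its groups overlapped through deficient array 11, and its difference of 0.51 (SE 0.17, adjusted p 0.0456) was lost under 17 of 26 alternatives, among them leaving out any 1 of 13 of the 16 arrays, with adjusted p up to 0.13 without deficient array 10.

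Among the stress factors, Atf6, the membrane-bound sensor that is cut to release a transcription factor (chromosome 1, 172635311 to 172635370), was slightly higher. It read 0.73, 0.60, 0.77 and 0.87 on deficient arrays 9, 11, 10 and 12, and 0.68, 0.37, 0.35 and 0.38 on wild-type arrays 2, 5, 6 and 8. Wild-type array 2 lay inside the deficient range and the other wild-type arrays below it. The difference was 0.30 (SE 0.09, adjusted p 0.027), and it was lost under 9 of 26 alternatives, among them leaving out deficient array 9, 10 or 12 or wild-type array 5, 6 or 8 (adjusted p 0.051 to 0.0709). Atf4, the factor made when Perk slows translation (chromosome 15, 80087902 to 80087961), gave 6.77, 6.89, 6.79 and 7.09 on deficient arrays and 7.50, 7.37, 7.21 and 7.24 on wild-type arrays, without overlap. It fell by 0.45 (SE 0.10, adjusted p 0.00704), and its other probe fell by 0.50 (adjusted p 0.00479 over probes). Ddit3, the stress factor CHOP, differed by -0.30 (adjusted p 0.312).

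Dnajb9, a DnaJ cochaperone of the ER lumen (chromosome 12, 45307313 to 45307372), was lower in deficient cells. Its level was 2.33, 2.41, 2.65 and 2.43 on deficient arrays and 3.51, 3.28, 2.78 and 2.89 on wild-type arrays of slide 1, with every deficient array below every wild-type array. It fell by 0.66 (SE 0.14, adjusted p 0.00484), and with slide 1 fitted alone adjusted p was 0.0532. Its other probe gave -0.49 (adjusted p 0.0639 over probes).

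The other 26 genes were not called on slide 1. The 10 genes of the translocon and the signal peptidase, which admit the chain and cut its signal peptide, lay between -0.10 (Ssr1) and 0.26 (Ssr4), with a median of 0.04. Other probes of Ssr3 and Spcs3 gave 0.53 (adjusted p 0.02) and 0.81 (adjusted p 0.0256), while the probes that stand for these genes gave 0.21 and -0.03. Of the general chaperones, Hspa5 (BiP), the main Hsp70 of the ER, differed by -0.16 and Hsp90b1, its Hsp90, by 0.49 (adjusted p 0.0753). Hyou1, Sdf2l1 and Manf lay at 0.16, 0.33 and 0.36, and Dnajc3, an inhibitor of Perk, at 0.08. The 6 genes of ER degradation were all positive, from 0.02 for Herpud1 to Derl3, with Edem2, a mannosidase-like protein that marks misfolded glycoproteins, at 0.41 (adjusted p 0.0522).

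Deficient array 10 was the highest of its group for 28 of the 33 genes and array 11 the lowest for 25. The median deviation from the group mean was 0.38 for array 10 and -0.27 for array 11. In the other 3 groups no array was highest for more than 23 genes (wild-type array 5 of slide 2). Without array 11, 12 of the 33 genes were higher on slide 1, and without deficient array 10, deficient array 12 or wild-type array 8 there were 3. The counts of all genes without these arrays are not given here.

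On slide 2 the same genes did not show that increase. None of the 33 was higher and 2 were lower, Ell2 and Edem1 (31 not called), where 4.33% of all genes tested were higher and 4.27% lower. With limma at an unadjusted p under 0.05, 0 were higher and 8 lower, with no such count over all genes. The median difference was -0.18, against 0.02 over all genes, and 25 of 33 differences were negative. Over all genes 52.7% of differences were positive. Every deficient array was below every wild-type array for 14 genes and above for 0, which held for 9.87% and 13.8% of all genes.

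Ell2 read 1.77, 1.28, 1.55 and 1.74 on deficient arrays 1, 2, 3 and 4 of slide 2, and 2.41, 2.03, 2.49 and 2.38 on wild-type arrays 1, 2, 3 and 5. The groups were separate, and Ell2 fell by 0.74 (SE 0.17, adjusted p 0.0174). Edem1, which delivers misfolded glycoproteins to degradation (chromosome 6, 108808920 to 108808979), read 3.81, 3.60, 3.72 and 3.92 on deficient arrays and 4.32, 4.12, 4.34 and 4.29 on wild-type arrays, again without overlap. It fell by 0.51 (SE 0.12, adjusted p 0.0203). Both calls were lost without deficient array 2, wild-type array 1 or wild-type array 3 of slide 2, with adjusted p 0.0551 to 0.0576 for Ell2 and 0.0595 to 0.0654 for Edem1. That of Edem1 was also lost without deficient array 3 (adjusted p 0.0523) and with scaling by the array median (-0.42, adjusted p 0.0682).

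The genes that led on slide 1 had negative differences on slide 2. Txndc5 stood at 0.93, 0.20, 0.50 and 1.04 on deficient arrays and at 1.41, 1.12, 1.39 and 1.93 on wild-type arrays, without overlap, and differed by -0.80 (SE 0.25, adjusted p 0.0693). Derl3 read 3.11, 3.01, 3.34 and 3.31 against 3.79, 3.58, 3.74 and 4.07, also without overlap, and differed by -0.60 (SE 0.30, adjusted p 0.261). For Creld2 the levels were 6.04, 5.71, 5.89 and 5.95 on deficient arrays and 6.08, 5.84, 5.93 and 6.36 on wild-type arrays, which overlapped, with a difference of -0.16 (adjusted p 0.793). Mzb1, an ER cochaperone of marginal zone B cells and plasma cells, read 7.15, 7.05, 7.04 and 7.08 against 7.46, 7.30, 7.47 and 7.73, without overlap, and differed by -0.41 (SE 0.14, adjusted p 0.0783). Fkbp11, a proline isomerase of secretory cells, was measured well above background on 2 of 4 arrays of deficient cells and 4 of 4 of wild-type cells, and differed by -1.55 (SE 0.53, adjusted p 0.0887), a value that rests on dim arrays; with those at their floor the signal of wild-type cells was at least 2.43-fold that of deficient cells.

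The other genes were not called on slide 2. Translocon and signal peptidase genes ran from -0.36 (Spcs2, adjusted p 0.0979) to 0.10 (Ssr1), with a median of -0.14. Another probe of Ssr1 gave 0.52 (adjusted p 0.0194), and a further one 0.37 (adjusted p 0.154). Hspa5 differed by 0.08, Hsp90b1 by -0.17, and Dnajc3 by 0.11. Pdia4 and Pdia6, disulfide isomerases, lay at -0.27 and -0.22. Atf4 differed by 0.21 (adjusted p 0.236) and Atf6 by 0.15 (adjusted p 0.353). Without 1 array, the number of genes lower on slide 2 was 0 with deficient array 2, wild-type array 1 or wild-type array 3 of slide 2 left out and 1 with deficient array 3 left out. It was 4 without deficient array 11 and 6 without deficient array 10, both on slide 1. With slide 2 fitted alone it was 9. The counts of all genes under these settings are not given here.

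**Figure D1:**
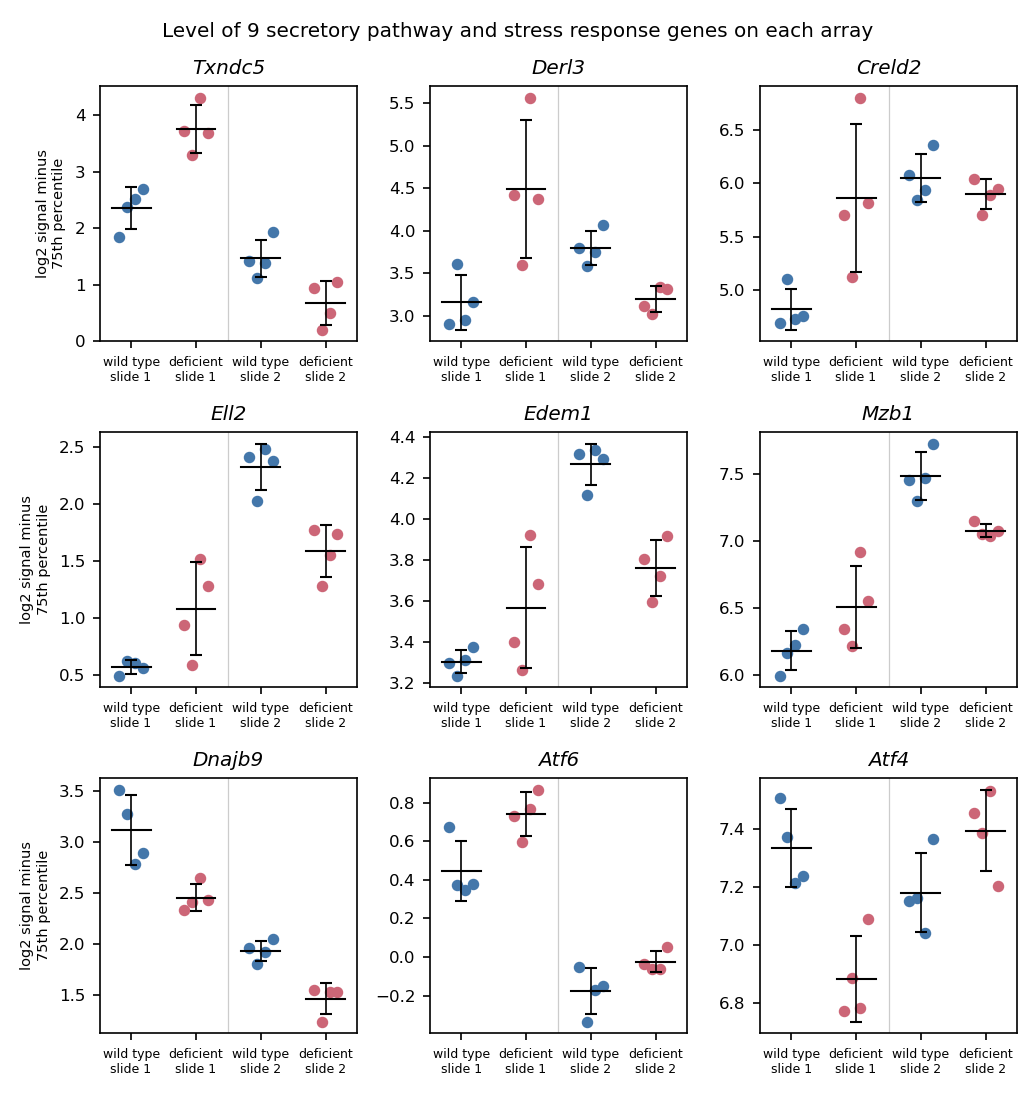
Level of 9 genes on each of the 16 arrays, as log2 signal minus the array's 75th percentile (vertical axis, a scale of its own in each panel), by genotype and slide, with 1 point per array, the mean as a line and 1 SD as a bar (4 arrays per group). Txndc5 sits between 3.30 and 4.31 on the deficient arrays of slide 1, above the wild-type arrays there, and between 0.20 and 1.04 on those of slide 2, below the wild-type arrays.

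The genotype difference itself differed between slides for 7 of the 33 genes. It was lower on slide 2 than on slide 1 for 6, Txndc5, Derl3, Ell2, Creld2, Edem1 and Mzb1, and higher for 1, Atf4, where 5.4% of all genes tested were lower in this comparison and 10.5% higher. The median over the 33 was -0.30, against 0.09 over all genes, and 25 of 33 values were negative. Over all genes 57.5% of values were positive. At an unadjusted p under 0.05, 13 were lower and 1 higher. The sign was positive on slide 1 and negative on slide 2 for 20 genes, the reverse for 3, positive on both for 5 and negative on both for 5. These unadjusted counts and sign patterns were not taken over all genes.

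The change was -2.19 for Txndc5 (SE 0.36, adjusted p 0.00244), -1.93 for Derl3 (SE 0.43, adjusted p 0.0104) and -1.25 for Ell2 (SE 0.25, adjusted p 0.00615). These 3 were called under all 25 alternatives run, as were Edem1 with -0.77 (adjusted p 0.011) and Mzb1 with -0.74 (adjusted p 0.0209). On slide 1 Mzb1 had read 6.34, 6.21, 6.92 and 6.56 on deficient and 6.00, 6.17, 6.22 and 6.35 on wild-type arrays, a difference of 0.32 (adjusted p 0.0933). Creld2 gave -1.20 (SE 0.36, adjusted p 0.04), a call lost under 13 of 25 alternatives, among them leaving out any 1 of 12 of the 16 arrays (adjusted p 0.0522 to 0.0766). Atf4 gave 0.66 (SE 0.14, adjusted p 0.00976), and 0.41 (adjusted p 0.0642) with quantile normalization. Without deficient array 11 of slide 1, 12 of the 33 genes were lower in this comparison (count of all genes not given here). None of the 10 translocon and signal peptidase genes was called, with values from -0.43 (Spcs1) to 0.20 (Ssr1).

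**Figure D2:**
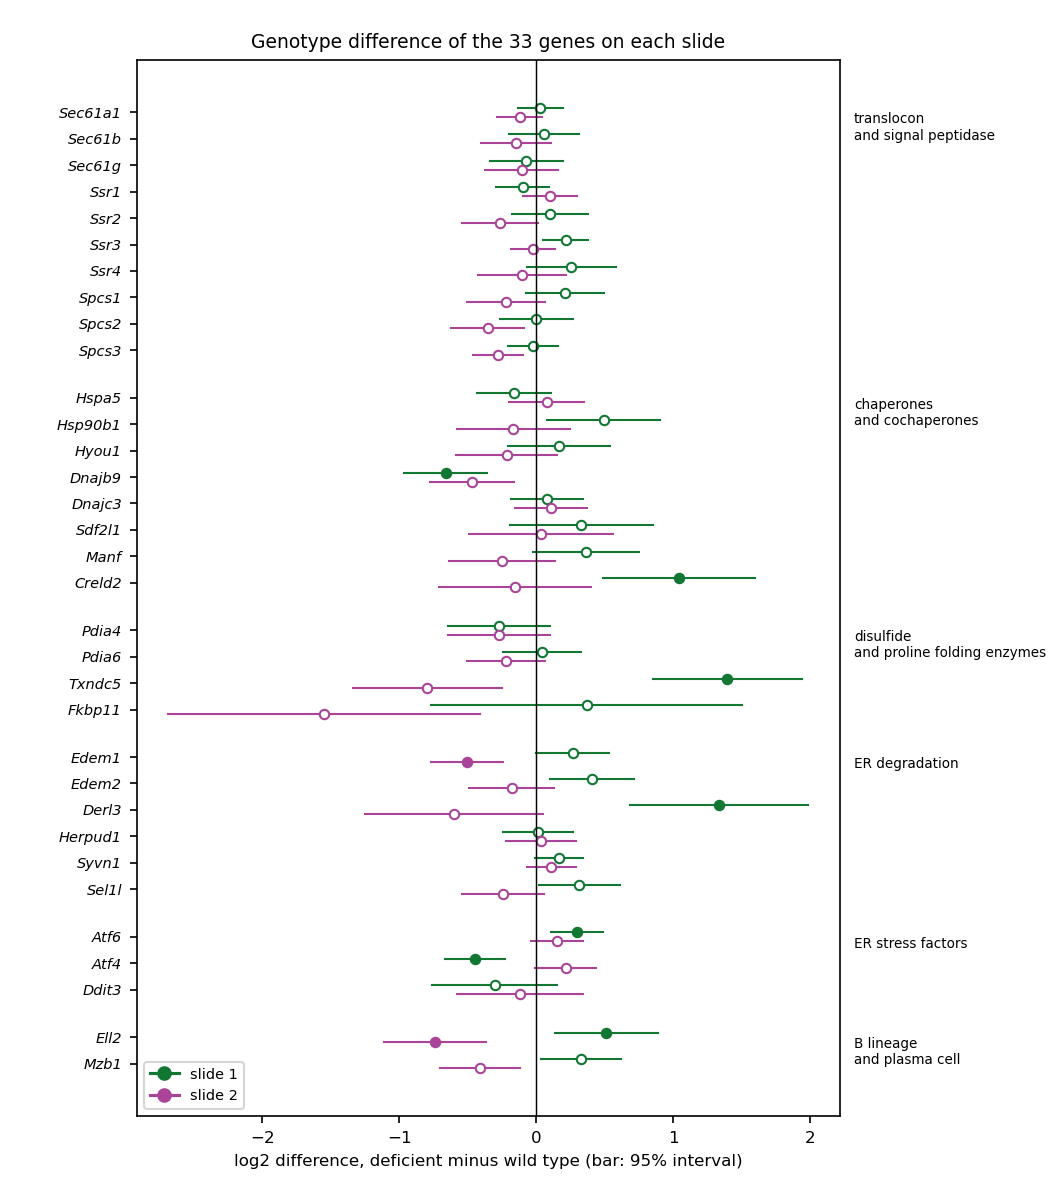
Difference between deficient and wild-type arrays of the 33 genes (horizontal axis, log2, deficient minus wild type) on slide 1 and slide 2, grouped by role, with 95% intervals of the limma fit and filled points for genes called at an adjusted p under 0.05. Txndc5 lies at 1.39 on slide 1 and -0.80 on slide 2, Dnajb9 lies left of 0 on both slides, and the translocon and signal peptidase genes stay between -0.36 and 0.26.

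Some plasma cell genes changed between slides in the same direction as Txndc5, Derl3, Ell2, Creld2, Edem1 and Mzb1. The genotype difference of Tnfrsf17, Igj, Sdc1 and Prdm1 was lower on slide 2 than on slide 1. That of Irf4 (0.27, adjusted p 0.427) and Slamf7 (-0.02, adjusted p 0.953) was not called in that comparison. In bulk RNA, fewer cells of a type and less RNA per cell cannot be told apart. The summed linear level of 7 plasma cell markers was 242 to 483 on deficient and 149 to 242 on wild-type arrays of slide 1, and 158 to 205 and 211 to 285 on slide 2. That sum rests mostly on Igj and Xbp1, the brightest of the 7. Of the 7, 3 were higher and 1 lower on slide 1, 0 higher and 4 lower on slide 2, and 4 were lower in the difference between slides. Over all genes tested 9.19% were higher and 15.8% lower on slide 1, 4.33% and 4.27% on slide 2, and 5.4% lower in the difference. Markers of some other cell types were called between genotypes too. The summed level of conventional dendritic cell markers was 8.22 to 13.8 on deficient and 4.25 to 5.54 on wild-type arrays of slide 1 (2 of 4 tested called higher), and 24.3 to 30.9 against 18.5 to 19.7 on slide 2 (0 called). That of erythroid markers was 61.7 to 216 against 55.9 to 343 on slide 1 and 2 to 9.91 against 0.233 to 0.26 on slide 2, where 2 of 5 tested were called higher. Those 2 were the globin genes Hba-a1 and Hbb-b1. Of 8 T cell markers 1 was higher and 2 lower on slide 1, and 2 were higher and 1 lower on slide 2. Neutrophil markers summed to 6.03 to 142 on deficient and 2.36 to 33.5 on wild-type arrays of slide 1 (0 of 6 called). Macrophage and monocyte markers summed to 79.8 to 118 and 62.6 to 128 there (0 of 9 called). Both sums overlapped between genotypes. The part of any of these cell types in the values of Txndc5, Derl3, Creld2, Ell2, Edem1 and Mzb1 was not tested.

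Tnfrsf17, the survival receptor BCMA of plasma cells, read 0.05, -0.14, 1.01 and 0.39 on deficient arrays 9, 11, 10 and 12 of slide 1 and -1.32, -1.19, -2.10 and -2.25 on wild-type arrays 2, 5, 6 and 8. Array 10 was again the highest, and the difference was 2.04 (adjusted p 0.00206). On slide 2 it was not well above background on any deficient array and was well above it on 4 of 4 wild-type arrays. It was at least 2.24-fold lower in deficient cells (adjusted p 0.00338 in the fit, which used the dim signals). Igj, the joining chain of secreted IgM and IgA, was higher on slide 1 (1.05, adjusted p 0.0281) and lower on slide 2 (-1.09, adjusted p 0.0482). Sdc1, the surface marker CD138, gave 0.70 (adjusted p 0.0829) and -1.42 (adjusted p 0.00618), and Prdm1, the plasma cell factor Blimp-1, 0.41 (adjusted p 0.386) and -1.35 (adjusted p 0.0229). The change between slides was -2.14 for Igj (adjusted p 0.00811), -2.12 for Sdc1 (adjusted p 0.00478) and -1.77 for Prdm1 (adjusted p 0.0237).

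Xbp1, the factor that drives secretory genes in plasma cells, was 5.83, 5.68, 6.69 and 5.87 on deficient arrays 9, 11, 10 and 12 and 5.50, 5.76, 5.39 and 5.25 on wild-type arrays 2, 5, 6 and 8 of slide 1. Its difference was 0.54 there (adjusted p 0.0479) and -0.20 on slide 2 (adjusted p 0.599), and the change between slides was -0.74 (adjusted p 0.0715). Irf4, a factor of B cell activation and plasma cells, was lower over both slides (-0.47, adjusted p 0.00939), with -0.60 on slide 1 (adjusted p 0.0124) and -0.33 on slide 2 (adjusted p 0.216). Slamf7, a surface receptor of plasma cells, differed by -0.15 and -0.17 and was not called on either slide.

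**Figure D3:**
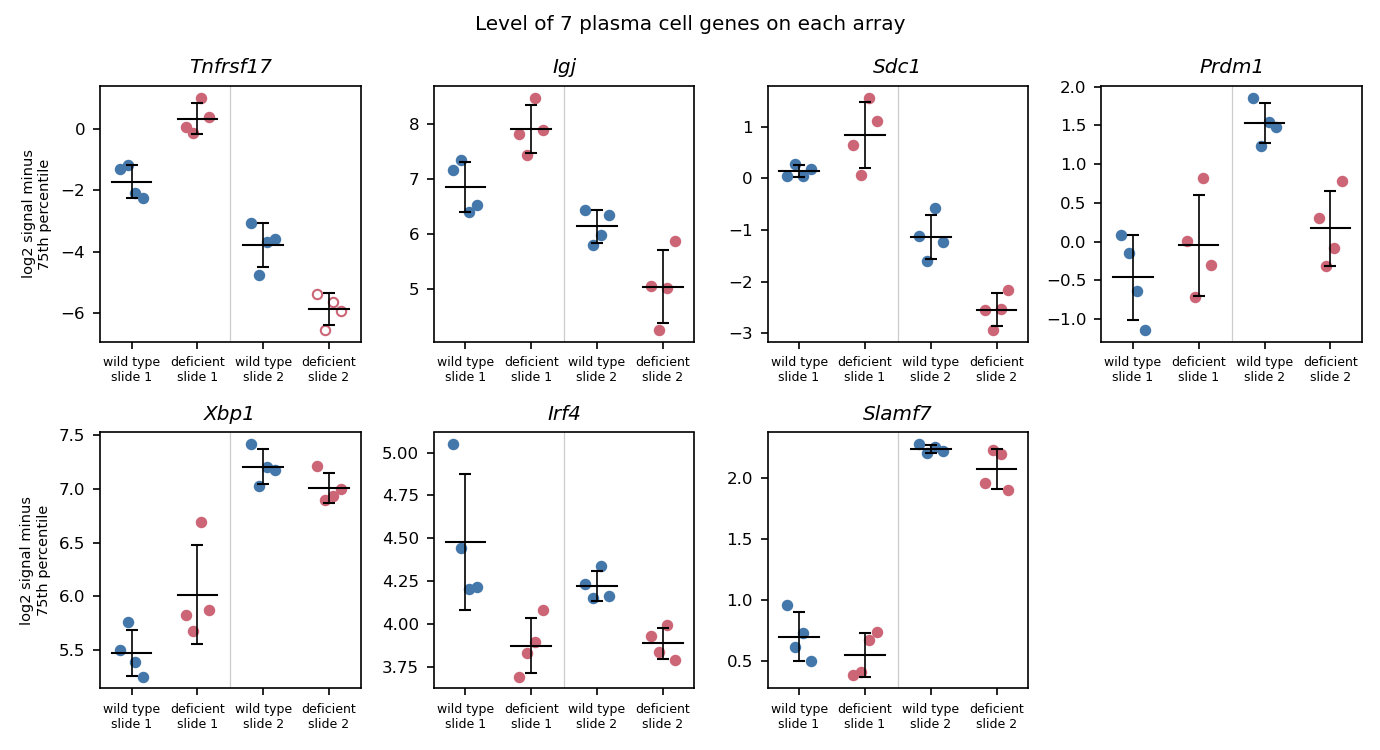
Level of 7 plasma cell genes on each of the 16 arrays, as log2 signal minus the array's 75th percentile (vertical axis, a scale of its own in each panel), by genotype and slide, with the mean as a line and 1 SD as a bar (4 arrays per group); open points are not well above background. The means of Tnfrsf17 and Igj are higher on deficient than on wild-type arrays of slide 1 and lower on slide 2.

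Over both slides 1 of the 33 genes was higher, Atf6, and 1 lower, Dnajb9 (31 not called), where 7.64% of all genes tested were higher and 9.95% lower. At an unadjusted p under 0.05 there were 3 and 3, again with no such count over all genes. The median was -0.03, as it was over all genes. Atf4 was not called (-0.12, adjusted p 0.302), while its other probe gave -0.23 (adjusted p 0.0465 over probes). Dnajb9 was 1.54, 1.23, 1.53 and 1.53 on deficient arrays 1, 2, 3 and 4 of slide 2 and 1.96, 1.80, 1.92 and 2.04 on wild-type arrays 1, 2, 3 and 5, so that the groups did not overlap on either slide. It fell by 0.57 over both slides (SE 0.10, adjusted p 0.00174), with -0.66 on slide 1 and -0.47 (adjusted p 0.0565) on slide 2. The call over both slides held under all 27 alternatives run, from -0.62 to -0.50, and the other probe of the gene fell by 0.60 (adjusted p 0.00579 over probes). On slide 2 that probe gave -0.71 (adjusted p 0.0282 over probes).

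Atf6 on slide 2 read -0.03, -0.06, -0.06 and 0.05 on deficient arrays and -0.05, -0.34, -0.17 and -0.15 on wild-type arrays, which overlapped through wild-type array 1. Its difference over both slides was 0.22 (SE 0.06, adjusted p 0.0254). The call was lost on leaving out deficient array 4 (0.21, adjusted p 0.0529) or wild-type array 2 of slide 2 (0.20, adjusted p 0.0554), without the filter on dim probes (adjusted p 0.053) and with slide as a random block (adjusted p 0.0616). Without deficient array 11 of slide 1, 3 genes were higher over both slides, and without deficient array 10 of slide 1, 2 were lower (counts of all genes not given here).

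Further genes of the same pathways gave few calls over both slides. Of 127 listed, 126 were tested, and 6 were higher and 8 lower, against the 7.64% and 9.95% of all genes. The largest differences among sensors and factors of the unfolded protein response (2 higher, 1 lower of 16) were Chac1, a glutathione-degrading target of Atf4, with 1.31 (adjusted p 0.0144), and Creb3, an ER-bound factor related to Atf6, with 0.92 (SE 0.10, adjusted p 4.46e-05). Chac1 differed by 2.13 on slide 1 (adjusted p 0.00528) and by 0.49 on slide 2 (adjusted p 0.606). Creb3 read 1.23, 1.69, 1.95 and 1.76 on deficient arrays 9, 11, 10 and 12 and 0.47, 0.46, 0.67 and 0.61 on wild-type arrays 2, 5, 6 and 8 of slide 1. On slide 2 it read 1.91, 1.36, 1.46 and 1.35 against 0.80, 0.64, 0.81 and 0.91, without overlap on either slide. Ppp1r15a, which restores translation after Perk has slowed it, fell by 0.46 (adjusted p 0.0471). Its difference was -0.93 on slide 1 (adjusted p 0.00641) and 0.01 on slide 2 (adjusted p 0.982).

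In targeting and translocation 0 of 16 were higher and 4 lower, Srp14 and Srp54a of the signal recognition particle (-0.27, adjusted p 0.0104, and -0.36, adjusted p 0.0461), Sec62 of the translocon (-0.27, adjusted p 0.0061) and Hspa13, an Hsp70 relative (-0.32, adjusted p 0.0156). In glycosylation 2 of 18 were higher and 0 lower, the oligosaccharyltransferase subunit Stt3b (0.46, adjusted p 0.000382) and the mannosyltransferase Alg9 (0.23, adjusted p 0.0204). On slides 1 and 2 Stt3b differed by 0.71 and 0.205 (adjusted p 0.000244 and 0.215). For Alg9 these values were -0.04 and 0.50 (adjusted p 0.753 and 0.00243). Of 23 folding enzymes 0 were higher and 1 lower, Fkbp14 (-0.65, adjusted p 0.0462). It differed by -0.24 on slide 1 (adjusted p 0.58) and by -1.05 on slide 2 (adjusted p 0.0412). Of 19 tested genes of ER degradation 1 was higher and 0 lower, Fam129a (0.38, adjusted p 0.0364). Of 34 genes of vesicle traffic 1 was higher and 2 lower, with Copa of the COPI coat at 0.23 (adjusted p 0.025), the cargo receptor Surf4 at -0.23 (adjusted p 0.00767) and the COPII GTPase Sar1a at -0.17 (adjusted p 0.0219). Copa differed by 0.45 on slide 1 (adjusted p 0.00363) and by 0.01 on slide 2 (adjusted p 0.959).

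Within slides, 17 of the 126 were higher and 14 lower on slide 1 (9.19% and 15.8% of all genes), 3 and 6 on slide 2 (4.33% and 4.27%), and 9 and 12 in the difference between slides (10.5% and 5.4%). The genes named next were chosen after their values were seen, and they went both ways. Tram2, a translocation-associated protein, differed by 0.75 (adjusted p 0.00597) on slide 1 and -0.70 (adjusted p 0.018) on slide 2, with a change of -1.45 (adjusted p 0.00234). Bbc3, the cell death factor Puma, gave 0.50 (adjusted p 0.0383) and -0.60 (adjusted p 0.0354). Mogs, the glucosidase that starts trimming of N-glycans, did the reverse, with -0.41 (adjusted p 0.00051) and 0.24 (adjusted p 0.0256) and a change of 0.66 (adjusted p 0.000694). The lectin chaperone Canx, Ppp1r15a and Asns, an asparagine synthetase, were also higher in the difference between slides, by 0.51, 0.94 and 0.95 (adjusted p 0.00915, 0.0448 and 0.0349). Kdelr3, a receptor that returns ER proteins from the Golgi, was not well above background on any wild-type array of slide 1. It was at least 2.11-fold higher in deficient cells there (adjusted p 0.00314 in the fit, which used the dim signals), with -0.96 (adjusted p 0.29) on slide 2. Ern1, the sensor Ire1, differed by 0.06 (adjusted p 0.723) on slide 1 and -0.52 (adjusted p 0.013) on slide 2.

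The largest differences of these genes were between the slides. In wild-type arrays 24 of 33 genes were higher and 5 lower on slide 2 than on slide 1, and in deficient arrays 21 and 6. Of all genes tested 48.7% were higher and 25.2% lower in wild-type arrays, and 50.5% and 25.6% in deficient arrays. The median of the 33 was 0.96 and 0.56, against 0.35 and 0.40 over all genes. In all, 20 genes were higher and 5 lower in both genotypes, which was not counted over all genes. Slide goes together with hybridisation, the scan and the samples taken, which cannot be told apart, and cell type markers moved with it in both genotypes. Of 8 B cell markers 6 were lower on slide 2 in each genotype and 1 was higher in deficient arrays, with a summed level of 1090 to 1310 on slide 1 and 739 to 891 on slide 2. Most macrophage, neutrophil, T, NK and erythroid markers were lower as well, while the summed level of conventional dendritic cell markers was higher, with 2 of 4 tested called higher and 2 lower in each genotype. Of 7 plasma cell markers 3 were higher and 2 lower on slide 2 in wild-type arrays, and 2 and 3 in deficient arrays. The part of these cell types in the slide differences was not tested.

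All 10 translocon and signal peptidase genes were higher on slide 2 in both genotypes, a direction that no scaling turned, although in deficient arrays the calls of Spcs2 and Ssr2 were lost with median scaling and with quantile normalization, and that of Spcs1 with the latter. Ssr3, a subunit of the translocon-associated complex (chromosome 3, 65183796 to 65183855), read 3.63, 3.69, 3.84 and 3.81 on wild-type arrays of slide 1 and 5.71, 5.74, 5.70 and 5.66 on those of slide 2. Its deficient arrays gave 3.88, 3.81, 4.05 and 4.07 and then 5.76, 5.65, 5.71 and 5.59. The slides were far apart and the genotypes close, with a slide difference of 1.96 (SE 0.08, adjusted p 4e-11) in wild-type and 1.72 (adjusted p 9.65e-11) in deficient arrays. The other 9 lay between 0.91 (Spcs2) and 1.49 (Ssr1) in wild-type arrays and between 0.55 (Spcs2) and 1.69 (Ssr1) in deficient arrays. Another probe of Ssr1 differed by -0.09 and 0.55.

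Among chaperones 7 of 8 were higher on slide 2 in wild-type arrays and 1 lower, and 6 and 1 in deficient arrays. Sdf2l1, a stress-inducible partner of BiP (chromosome 16, 17130426 to 17130485), read 1.67, 2.40, 2.13 and 2.18 on wild-type arrays of slide 1 and 4.07, 4.02, 4.10 and 4.33 on slide 2, a difference of 2.03 (SE 0.24, adjusted p 3.43e-06). Manf, a secreted factor induced by ER stress (chromosome 9, 106791278 to 106791337), read 2.90, 3.19, 3.08 and 3.06 and then 5.04, 4.83, 4.96 and 5.23, a difference of 1.96 (SE 0.18, adjusted p 2.18e-07). In deficient arrays these differences were 1.74 and 1.35. Hspa5 was higher by 0.80 and 1.04 and Hsp90b1 by 1.37 and 0.71, where the latter call was lost with median scaling (0.42, adjusted p 0.0521) and with quantile normalization (0.059, adjusted p 0.774). Dnajb9 was the exception and fell by 1.18 in wild-type (adjusted p 3.43e-06) and by 0.99 in deficient arrays (adjusted p 1.84e-05).

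Folding enzymes and degradation genes went both ways. Txndc5 fell by 0.90 between slides in wild-type arrays (adjusted p 0.00529) and by 3.09 in deficient arrays (adjusted p 5.31e-08), and Derl3 differed by 0.64 (adjusted p 0.0708) and by -1.29 (adjusted p 0.00139). Pdia6 was higher by 1.47 and 1.21. Fkbp11 was not well above background on any wild-type array of slide 1. On slide 2 it exceeded that bound at least 2.14-fold (adjusted p 0.00573 in the fit, which used the dim signals), with -0.07 (adjusted p 0.915) in deficient arrays. With normexp background correction its difference in wild-type arrays was 0.40 and the call was lost (adjusted p 0.0512). Edem2 was lower in both genotypes (-0.49 and -1.08), as were Syvn1, a ubiquitin ligase of the ER membrane (-0.26 and -0.31), and Atf6 (-0.62 and -0.77). Ell2 and Mzb1 were higher by 1.76 and 1.31 in wild-type arrays and by 0.51 and 0.57 in deficient arrays. There the call of Ell2 was lost with median scaling (0.22, adjusted p 0.297) and with quantile normalization (0.37, adjusted p 0.0741). Leaving out array 11 of the deficient group on slide 1 lost it too (0.34, adjusted p 0.0569). Atf4 differed by -0.15 (adjusted p 0.192) and 0.51 (adjusted p 0.00042), and in deficient arrays Atf4 and Mzb1 turned to -0.079 and -0.088 with quantile normalization. Pdia4 and Ddit3 were called in neither genotype.

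Scaling moved these slide differences. With arrays scaled by their median the median over all genes went from 0.35 to -0.03 in wild-type arrays and from 0.40 to 0.11 in deficient arrays, and that of the 33 genes to 0.58 and 0.27. The share of called genes of the whole array that were higher went from 65.9% to 47.7% in wild-type and from 66.4% to 53.9% in deficient arrays, from 43.4% to 58.3% for the genotype difference over both slides, and from 50.4% to 65.6% on slide 2. With quantile normalization it went from 66% to 47.5% for the difference between slides. Of the 33 genes, 8 were then called lower in wild-type arrays under the median and 13 higher in deficient arrays under either scaling.

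**Figure D4:**
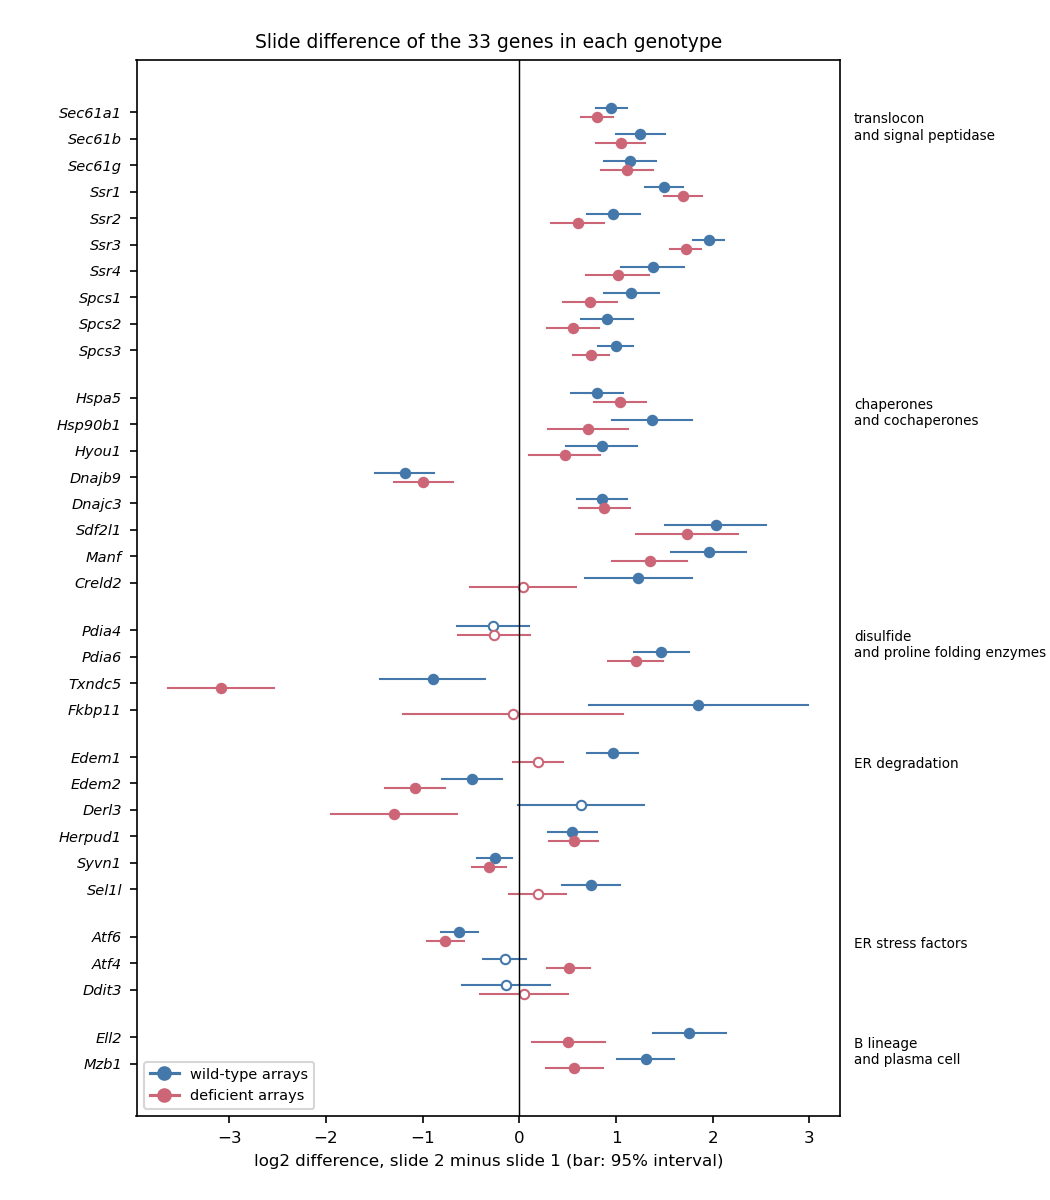
Difference between slide 2 and slide 1 of the 33 genes (horizontal axis, log2, slide 2 minus slide 1) in wild-type and in deficient arrays, grouped by role, with 95% intervals of the limma fit and filled points for genes called at an adjusted p under 0.05. The 10 translocon and signal peptidase genes all lie right of 0, Dnajb9 and Txndc5 lie left of it, and Txndc5 reaches -3.09 in deficient arrays.

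The genes with the ER stress response element were also set beside the rest of the list. Of the 7, 2 were higher and 0 lower on slide 1 (Creld2 and Derl3), with a median difference of 0.17, and of the 19 genes with a promoter window and without the element 2 were higher and 2 lower (median 0.21). On slide 2 the counts were 0 and 0 with a median of -0.16, and 0 and 2 with -0.18. Between slides in wild-type arrays 5 of the 7 were higher and 1 lower (median 0.85), and 13 of the 19 were higher and 3 lower (median 0.96). Of all genes tested 9.19% were higher and 15.8% lower on slide 1 (median -0.08), and 4.33% and 4.27% on slide 2 (median 0.02). Between slides in wild-type arrays 48.7% of all genes were higher and 25.2% lower (median 0.35). The 2 sets were not tested against each other.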

How the data were processed

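RNA of 16 samples was hybridised to Agilent single-colour arrays. Per the labels' protocols 0.2 microgram of RNA with a RIN number of 9 was amplified and labelled with a low-input kit. The deposited intensity is the authors' scanner output from Feature Extraction 10.7.3.1, with background subtraction, a detrending step and surrogates for dim spots, and arrays were not normalized to each other, per the file headers. Coordinates of probes follow mm9, per the file headers. The authors' deposited log2 table, with slides scaled separately, served as an alternative within slides; its background handling is not given in the sources used here, and the submitters' processing notes name limma for 8 samples with no version.

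Each array's 62976 spots held 3671 controls, which were left out, as were spots marked non-uniform or as population outliers. From the log2 of the processed signal the 75th percentile of the array was subtracted, and spots of a probe were averaged. Probes had to be well above background on 4 or more of 16 arrays, and the brightest stood for a gene. A limma model (3.58.1, R 4.3.3) of 4 group means (genotype by slide) gave 6 contrasts, each adjusted by Benjamini-Hochberg over 22733 genes, and every adjusted p printed is limma's. The script was tested on simulated data. Where no array of a group measured a gene well above background, its fold is a bound against the dimmest signal above background of each array. The adjusted p beside such a bound is that of the fit on the dim signals and not a test of the bound. The number of arrays limits the precision.

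Samples were not treated as paired by replicate number. The correlation of deviations of arrays with the same number was 0.01, 0.12 and 0.07 on slide 2. For wild-type numbers 2 and 5 across slides it was 0.03 and 0.06. Arrays with different numbers were not set beside them, so these correlations cannot exclude a link between samples of the same number. The 33 genes, the pathway and marker lists, the tests and the alternatives were chosen with earlier results of these data known. Values by array are given for those of the 33 genes called on a slide or over both slides. They are also given for Sdf2l1, Ssr3 and Manf, which had the largest slide differences in wild-type arrays. A pathway gene was named if among the 4 of its list with the largest called difference over both slides. Mzb1, Tnfrsf17, Xbp1 and Creb3 were given by array after their values were seen.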

Additional observations from a re-analysis of the deposited data

Results flagged for a closer look

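In 9 of 132 sets of 4 arrays (6.82%) 1 array stood apart from the other 3, where chance gives about 1 in 20. The arrays of slide 1 were wild-type array 2 for Atf6 (0.675), wild-type array 5 for Creld2 (5.10), and deficient array 10 for Sec61g (6.26) and Spcs2 (3.88). On slide 2 they were deficient array 3 for Sec61a1 (5.90), deficient array 2 for Dnajb9 (1.23) and Syvn1 (6.41), and wild-type array 5 for Sec61g (7.50) and Ssr4 (6.05).

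The genotype difference of 7 genes differed between the slides by limma's test of the difference itself. The change from slide 1 to slide 2 was 0.66 for Atf4, -2.19 for Txndc5, -1.93 for Derl3, -1.25 for Ell2, -1.20 for Creld2, -0.77 for Edem1 and -0.74 for Mzb1.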

How the results depend on the processing

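Of 74 calls on single genes, 49 were kept under every alternative run for them and 2 turned: the deficient slide differences of Atf4 (-0.079) and Mzb1 (-0.088) with quantile normalization. Counts below are of the 33 genes, and the cause of each change was not tested. Apart from the replicate blocks, counts of all genes under the same settings are not given here. These changes are therefore not shown to be particular to the list. Over both slides (1 higher, 1 lower) the higher count was 0 without the filter on dim probes and with slide as a random block, 2 with array weights, and 0 to 3 without 1 array; the lower count was 2 with the authors' table and 1 to 2 without 1 array. On slide 1 (5 higher, 2 lower) 3 were higher with median scaling or without the filter, 11 with quantile normalization, 13 with the authors' table, 1 with the slide fitted alone, and 3 to 12 without 1 array, and 1 was lower with the slide fitted alone. On slide 2 (0 higher, 2 lower) 1 was higher with the mean over probes or array weights. There 4 were lower with normexp, 1 with median scaling, 5 with quantile normalization, the filter on all 16 arrays or the authors' table, 10 with array weights, 9 with the slide fitted alone, and 0 to 6 without 1 array. In the difference between slides (1 higher, 6 lower) 0 were higher with quantile normalization and 2 with the mean over probes, and 11 were lower with quantile normalization or the authors' table, and 5 to 12 without 1 array. Between slides, 8 were lower in wild-type arrays with median scaling, and 13 were higher in deficient arrays with median scaling or quantile normalization. These calls are read with 4 arrays per group, and Fkbp11 was limited by signal over background.

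With a replicate block for wild-type numbers 2 and 5, 1 gene was lower and 23 higher between slides, against 3 and 23 for the same arrays without the block. Of all genes, 12239 were called with that block and 12822 without it. With a replicate block for numbers 1, 2 and 3 of slide 2, 0 were higher and 3 lower, against 1 and 7 without it. Calls over all genes fell too, from 2928 without the block to 1258 with it. Whether the numbers link samples was not settled.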
